A study of Mus musculus with 10 samples.

Results

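The genes described here carry the hedgehog and PTHrP signals of the growth plate, the cartilage disc at which long bones lengthen. A total of 9 were chosen by symbol: the ligand genes Ihh and Pthlh, the receptor genes Ptch1 and Smo, the transcription factor genes Gli1, Gli2 and Gli3, the decoy receptor gene Hhip and the growth factor receptor gene Fgfr3. Of these, 8 could be followed among the 19938 genes tested, each by 1 probe set that the platform annotation pairs with that symbol alone. Pthlh, which encodes PTHrP, has no such probe set in the annotation used, so its level is not analysed here. The PTHrP side is described through its receptor and the genes downstream of it.

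RNA came from osteoblastic lineage cells of 5 BA mice and 5 control mice on a C57BL/6 background, with 1 Affymetrix Gene ST 1.0 array per mouse. BA mice were Scl-tTA::TRE-BCR/ABL animals: a BCR/ABL gene under a tetracycline-responsive element, switched on by a transactivator that is driven by the promoter of Scl, a gene of blood cell progenitors, and repressed by doxycycline. They serve as a model of myeloproliferative neoplasia. The labels call the other mice age-matched controls without a genotype, and both groups were taken off doxycycline at 5 weeks of age and sampled 5 to 6 weeks later. The cells were freed from crushed, washed bone by collagenase and sorted after staining for CD51, Sca-1, CD45, CD31 and lineage antigens, and RNA from 500 to 2300 cells was amplified for each array.

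In the growth plate, Indian hedgehog (Ihh) is secreted by chondrocytes that are about to enlarge. It binds Patched 1 (Ptch1), which releases Smoothened (Smo), and the signal reaches the nucleus through the Gli factors: Gli1 and Gli2 mainly activate, Gli3 mainly represses, and Ptch1, Gli1 and Hhip are themselves switched on by the pathway. Ihh also raises PTHrP, which acts on its receptor Pth1r to keep chondrocytes dividing and so delays their enlargement, while Fgfr3 restrains chondrocyte division and lowers Ihh. In bone, osteoblast precursors also respond to Ihh.

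Cartilage transcripts were present in the sorted cells. Of 17 chondrocyte markers measured, 16 lay on all 10 arrays above the 95th percentile of 1194 olfactory and vomeronasal receptor genes, which are taken here as not expressed in bone and so as an estimate of background. All 10 hypertrophic chondrocyte markers measured did so too, and so did 8 of 9 osteoblast markers, against 3 of 10 endothelial markers. Of those 10 hypertrophic markers 3 (Alpl, Ibsp and Sp7) are also on the osteoblast list. The count was 7 of 8 for stromal progenitor, 7 of 8 for pericyte and smooth muscle and 6 of 15 for pan-haematopoietic markers. This cut, 6.05 over the mean of the 10 arrays, lies close to the array medians of 5.91 to 6.02. The share of all genes above it was not computed, so these counts do not show enrichment. Among the endothelial markers Cdh5, Kdr, Emcn and Tek were at background on every array. The sorted cells are labelled as osteoblastic, and the growth plate genes were read among transcripts of bone, cartilage and these other cell types, in which fewer cells of a type and less RNA per cell cannot be told apart.

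None of the 8 genes differed between BA and control cells beyond the spread between mice. In the fit over all genes (limma, Benjamini-Hochberg adjustment) 0 of the 8 passed an adjusted p of 0.05, where 0.00502% of all genes did, and 0 of the 8 had an unadjusted p under 0.05, where 9.4% of all genes did. The groups overlapped for all 8, and they were apart for 1.67% of all genes. The averages of Ihh, Hhip and Fgfr3 were higher and those of Ptch1, Smo, Gli1, Gli2 and Gli3 lower in BA cells, with a median difference of -0.05 on the log2 scale over the 8 and of -0.06 over all genes. Over all genes 61.9% were lower and 37.7% higher in BA cells (55.7% and 43.9% once each array was centred on its median). The single gene past the threshold encodes the small nucleolar RNA Snord38a. It is named here because it was the only one called, after its values were known. Snord38a stood at 5.98 ± 0.43 in BA and 3.53 ± 0.33 in control cells (SD, n = 5 each). Both averages lay below the receptor cut of 6.05, the BA average close to it and above the receptor median of 4.36. That call was lost with the replicate block, the pan-haematopoietic covariate and the equal-variance test, and without BA replicate 3 or 5 or control replicate 2 or 5.

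**Figure D1:**
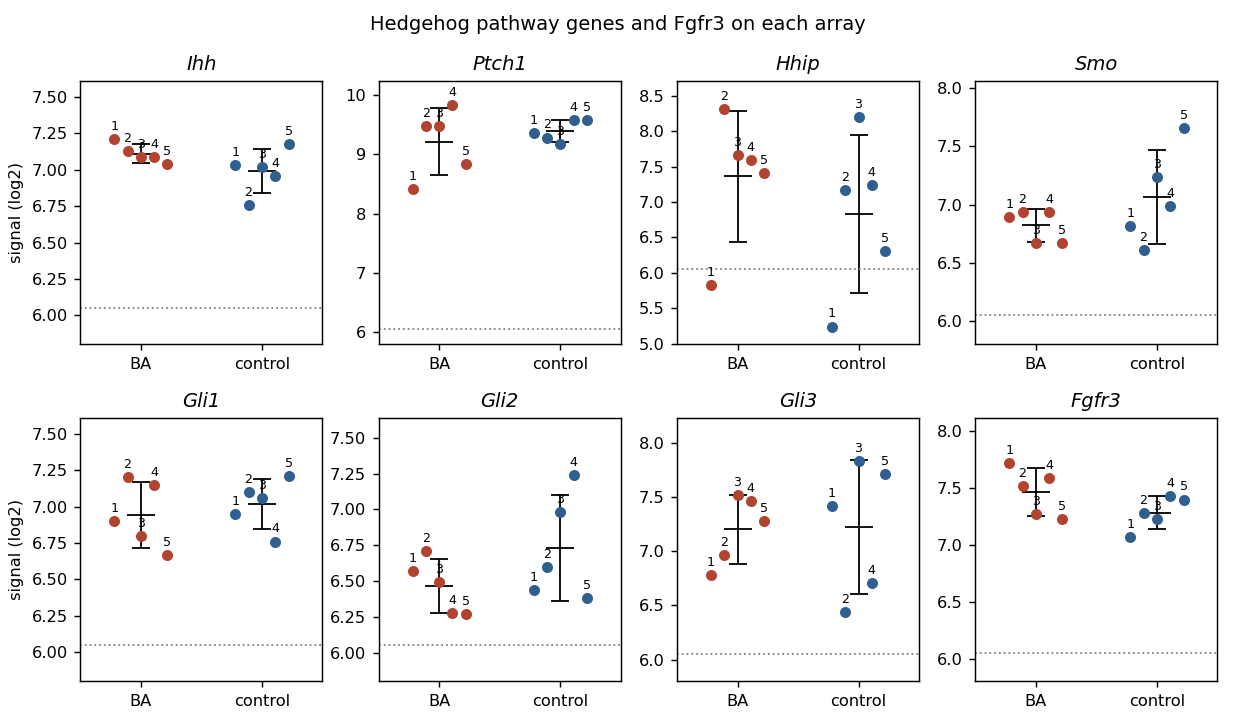
Log2 signal (vertical axes, each panel with its own range) of the 8 genes on the 5 BA and 5 control arrays. Points are single mice numbered by replicate, bars are the mean ± SD, and the dotted line is the 95th percentile of nasal receptor genes (6.05, over the mean of the 10 arrays). BA and control points overlap in every panel, and Hhip alone falls below the dotted line, on BA replicate 1 and control replicate 1.

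Ihh, the ligand, was the steadiest of the genes among BA mice. It read 7.21, 7.13, 7.09, 7.09 and 7.04 on the log2 scale in BA replicates 1 to 5, against 7.03, 6.76, 7.02, 6.96 and 7.18 in control replicates 1 to 5. Only BA replicate 1 lay above every control array, control replicate 2 was the lowest of the 10, and the remaining values overlapped. The averages were 7.11 ± 0.06 in BA and 6.99 ± 0.15 in control cells (SD, n = 5 each), a difference of 0.12 ± 0.09 (SE; adjusted p = 0.635, limma). As a fold the difference was 1.09, with a 95% interval from 0.941 to 1.26. On the log2 scale it was 0.06 without control replicate 2 and 0.05 with quantile normalization. Ihh stayed above the receptor background on all 10 arrays, as did the ligand gene Shh. Without detection calls this alone does not show that either gene is expressed. The mean of Ihh over the arrays lay above that of 77.5% of all genes.

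Ptch1 encodes the hedgehog receptor and is a target of the pathway. BA replicates 1 to 5 read 8.42, 9.48, 9.47, 9.83 and 8.84, against 9.36, 9.28, 9.17, 9.57 and 9.57 in control replicates 1 to 5. BA mice thus held both the lowest values, on replicates 1 and 5, and the highest, on replicate 4, while controls lay within a narrow band. The averages were 9.21 ± 0.57 in BA and 9.39 ± 0.18 in control cells (SD, n = 5 each). The difference of -0.18 ± 0.24 (SE; adjusted p = 0.776, limma) corresponds to a fold of 0.881, with a 95% interval from 0.606 to 1.28. Without BA replicate 1 it was 0.02. BA replicate 5, the other low array, was the array with the highest mean of 15 pan-haematopoietic markers, at 8.52, against 6.65 to 7.09 on the other BA arrays and 6.15 to 7.19 on the control arrays. BA replicate 1, the lowest array for Ptch1, had a mean of 7.09, within the control range. The Ptch1 difference was -0.03 with that mean as a covariate, and the part of blood cell RNA in it was not tested.

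Hhip encodes a membrane protein that binds hedgehog ligands and limits their range. It varied most between mice in both groups: BA replicates 1 to 5 read 5.83, 8.31, 7.66, 7.60 and 7.41, against 5.24, 7.17, 8.20, 7.24 and 6.31 in control replicates 1 to 5. One array of each group, replicate 1 in both, lay below the receptor background, and the highest array of each group lay above 8. The averages were 7.36 ± 0.92 in BA and 6.83 ± 1.11 in control cells (SD, n = 5 each), a difference of 0.53 ± 0.57 (SE; adjusted p = 0.724, limma). As a fold its 95% interval, from 0.599 to 3.48, is the widest of the 8. Leaving out BA replicate 1 gave a difference of 0.91, and leaving out control replicate 1 one of 0.13.

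The stretch before the Hhip gene is shown because Hhip was the most variable of these genes between mice and the only one whose promoter window holds a full cAMP response element, the DNA motif through which cAMP and protein kinase A, the messengers used by the PTHrP receptor, act. It is the 198 bases before the annotated gene start, GRCm38.p6 chr8:80058061-80058258 on the minus strand, from RefSeq, 5′ to 3′, with the element TGACGTCA in capitals, starting 23 bases before the gene start.
Hhip: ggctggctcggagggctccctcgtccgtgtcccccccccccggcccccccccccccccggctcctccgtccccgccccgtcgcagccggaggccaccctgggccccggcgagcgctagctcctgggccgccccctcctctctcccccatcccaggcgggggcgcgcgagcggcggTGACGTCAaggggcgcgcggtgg

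This stretch is 82.3% G and C. Windows from 250 bases before to 50 after a gene start were found for 8 of the 9 genes, Gli1 being the one without, and gave 9 windows in all. The element, which reads the same on both strands, is in 1.79% of the 32851 windows of all genes and in the window of 1 of these 8 genes, Hhip. It was searched for after the windows had been read. The Gli consensus GACCACCCA (both strands) is in 0.253% of all windows and in none of those 9, and its core GACCACCC, which the consensus contains, is in 0.807% of all windows and again in none of the 9. A RUNX motif, TGTGGT (both strands), was also searched for. It is in 16.8% of all windows and in the window of 1 of these 8 genes, Gli3. A match is a description of letters, and no match says only that they are not in this window.

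Smo encodes the membrane protein that carries the signal inward. BA replicates 1 to 5 read 6.89, 6.94, 6.67, 6.94 and 6.67, against 6.82, 6.61, 7.24, 6.99 and 7.66 in control replicates 1 to 5. Control replicates 3, 4 and 5 lay above every BA array, and control replicate 2 lay below them all. The averages were 6.82 ± 0.14 in BA and 7.06 ± 0.41 in control cells (SD, n = 5 each), a difference of -0.24 ± 0.18 (SE; adjusted p = 0.625, limma), or a fold of 0.846 with a 95% interval from 0.639 to 1.12. Without control replicate 5 the difference was -0.09.

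Gli1 is both an effector and the target gene most often used to read the pathway's activity. BA replicates 1 to 5 read 6.90, 7.20, 6.80, 7.15 and 6.67, against 6.95, 7.10, 7.06, 6.76 and 7.21 in control replicates 1 to 5. The 2 sets of values covered nearly the same range. The averages were 6.94 ± 0.23 in BA and 7.02 ± 0.17 in control cells (SD, n = 5 each), a difference of -0.07 ± 0.13 (SE; adjusted p = 0.838, limma). Its 95% interval, from a fold of 0.777 to 1.16, holds no change as large as 1.5-fold in the measured signal. The values of 6.67 to 7.21 lay not far above the receptor cut of 6.05. Differences between dim probe sets may not be measured in full, so a larger change in RNA is not excluded. The difference was near 0 without BA replicate 5 (-0.0035) and -0.14 without BA replicate 2 or control replicate 4.

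Gli2, the main activator of the family, read 6.57, 6.71, 6.49, 6.28 and 6.27 in BA replicates 1 to 5, against 6.44, 6.60, 6.98, 7.24 and 6.38 in control replicates 1 to 5. Control replicates 3 and 4 lay above all BA arrays, and BA replicates 4 and 5 lay below all control arrays. The averages were 6.46 ± 0.19 in BA and 6.73 ± 0.37 in control cells (SD, n = 5 each), a difference of -0.26 ± 0.18 (SE; adjusted p = 0.594, limma) and a fold of 0.833, with a 95% interval from 0.634 to 1.09. The difference was -0.11 with the pan-haematopoietic mean as a covariate and -0.14 without control replicate 4.

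Gli3, the main repressor, read 6.78, 6.96, 7.52, 7.46 and 7.28 in BA replicates 1 to 5, against 7.42, 6.44, 7.83, 6.71 and 7.71 in control replicates 1 to 5. Control mice fell into a low pair, replicates 2 and 4, and a high trio, of which replicates 3 and 5 lay above every BA array, and BA mice lay between these extremes. The averages were 7.20 ± 0.32 in BA and 7.22 ± 0.62 in control cells (SD, n = 5 each), a difference of -0.02 ± 0.28 (SE; adjusted p = 0.980, limma), with a 95% interval from a fold of 0.639 to 1.52. Gli3 has no settled direction: the difference was 0.01 once each array was centred on its median.

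Fgfr3, the receptor whose activating mutations shorten the growth plate, read 7.72, 7.52, 7.27, 7.59 and 7.23 in BA replicates 1 to 5, against 7.07, 7.28, 7.23, 7.43 and 7.40 in control replicates 1 to 5. BA replicates 1, 2 and 4 lay above every control array, and the other BA arrays lay within the control range. The averages were 7.47 ± 0.21 in BA and 7.28 ± 0.14 in control cells (SD, n = 5 each). The difference of 0.18 ± 0.12 (SE; adjusted p = 0.593, limma) is a fold of 1.14 with a 95% interval from 0.942 to 1.37, and it became 0.08 with quantile normalization.

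**Figure D2:**
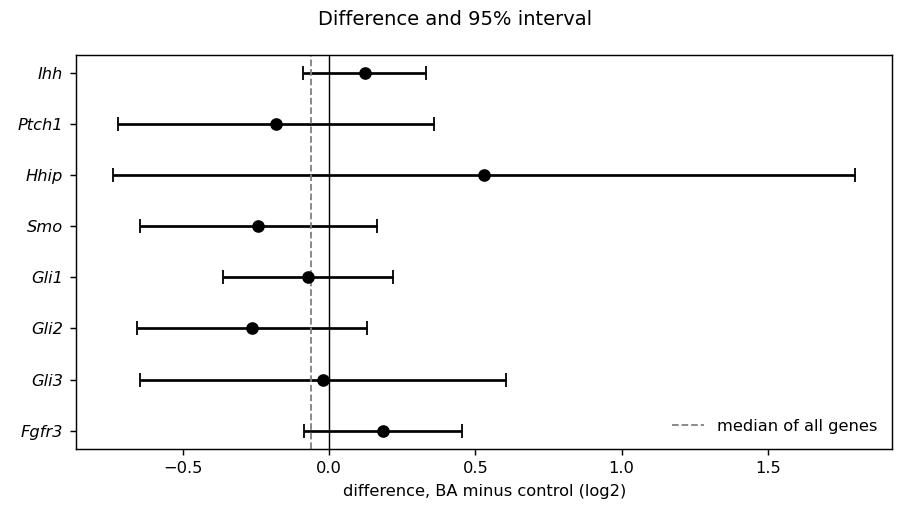
Difference of each gene, BA minus control on the log2 scale (horizontal axis), with its 95% interval from the fit over all genes (n = 5 mice per group). Every interval contains 0; that of Ihh is the narrowest (-0.09 to 0.33) and that of Hhip the widest (-0.74 to 1.80), and the dashed line is the median of all genes (-0.06).

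The mice were not all of 1 sex by their Xist level, which was between 9.81 and 10.70 on 3 BA and 2 control arrays and between 3.85 and 5.08 on 2 BA and 3 control arrays. Within the high-Xist arrays Hhip averaged 7.77 in BA and 6.78 in control cells, a difference of 1.00, and within the low-Xist arrays 6.74 and 6.87, a difference of -0.13. The Smo difference was -0.47 on the high-Xist and -0.11 on the low-Xist arrays, and that of Gli2 -0.39 and -0.14. Ihh had a difference of 0.02 on the high-Xist and 0.21 on the low-Xist arrays, and Fgfr3 one of 0.03 and 0.30. For Gli1 and Gli3 these values lay between -0.19 and 0.02, and for Ptch1 they were -0.19 and -0.32. Whether any of these pairs differ was not tested. With the Xist level as a covariate 0 of the 8 genes passed.

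The other genes of the pathway were grouped by role, and no gene of any of these lists passed the adjusted threshold in either direction. Among genes of hedgehog ligand processing and release 2 were higher and 6 lower (8 measured, median difference -0.07), and 1 had an unadjusted p under 0.05, where 5.27% of all genes were lower and 4.13% higher by that rule. That gene was Dhh, the hedgehog ligand known from testis and nerve sheath, which read 6.06, 6.03, 5.79, 5.79 and 5.85 in BA replicates 1 to 5, against 6.07, 6.09, 6.48, 6.09 and 6.31 in control replicates 1 to 5. All 5 BA arrays lay below all 5 control arrays, as they did for 1.1% of all genes. The difference was -0.30 ± 0.11 (SE, adjusted p = 0.484, limma), but Dhh lay above the receptor background on 4 of the 10 arrays only. That background cut itself ran from 5.94 to 6.14 over BA arrays and from 6.06 to 6.29 over control arrays. Its part in the Dhh difference was not tested. The differences were -0.89 ± 0.44 for Disp1, which releases the lipid-bearing ligand from the cell, -0.15 ± 0.11 for Scube2 and 0.29 ± 0.21 for Scube1, secreted helpers of that release. Shh, the ligand best known from limb and nervous system, averaged 6.52 ± 0.16 in BA and 6.55 ± 0.10 in control cells (SD, n = 5 each). Like Ihh, it lay above the receptor background on all 10 arrays, which alone does not show expression.

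All 5 measured genes on the list of receptors and co-receptors were lower on average in BA cells. Their median difference was -0.23, where 61.9% of all genes were lower. Of the 5, 1 had an unadjusted p under 0.05, as did 5.27% of all genes in the lower direction. Gas1, a lipid-anchored protein that helps Ptch1 bind the ligand, read 7.25, 7.14, 7.11, 6.97 and 7.08 in BA replicates 1 to 5, against 7.35, 7.30, 7.76, 7.26 and 7.56 in control replicates 1 to 5. The groups did not overlap, as for 1.1% of all genes in the lower direction, with BA replicate 1 and control replicate 4 nearly meeting, and the difference was -0.34 ± 0.11 (SE; adjusted p = 0.482, limma), a fold of 0.792. The co-receptor Boc differed by -0.23 ± 0.27, the endocytic receptor Lrp2 by -0.20 ± 0.12 and the glypican Gpc3, which competes for the ligand, by -0.34 ± 0.46. Lrp2 and Cdon were at receptor background on every array. Gas1 lay above it on all 10 arrays, Boc on 8 and Gpc3 on 5.

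Inside the cell, the signal passes through the primary cilium. Of 18 such genes 10 were higher and 8 lower (median difference 0.03), and 2, both higher, had an unadjusted p under 0.05, by which 4.13% of all genes were higher. Tulp3, an adaptor that carries membrane proteins into the cilium and dampens the pathway, averaged 7.17 ± 0.11 in BA and 6.79 ± 0.33 in control cells (SD, n = 5 each), a difference of 0.38 ± 0.15 (SE; adjusted p = 0.507, limma). Ift80, a part of the transport train of the cilium, averaged 7.28 ± 0.26 in BA and 6.46 ± 0.82 in control cells (SD, n = 5 each), a difference of 0.82 ± 0.35 (SE; adjusted p = 0.508, limma). For Ift80 control replicate 1 stood low, at 5.23. Sufu, which holds the Gli factors back, differed by 0.30 ± 0.14 and Iqce, a scaffold at the base of the cilium, by -0.24 ± 0.12 at levels not above the receptor background on any array.

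Of 11 genes that hedgehog signals are known to switch on in various tissues, 1 was higher, 9 were lower and 1, Foxf1, was equal, where 61.9% of all genes were lower. The median difference was -0.13, and 0 of the 11 had an unadjusted p under 0.05. The cyclin gene Ccnd2 averaged 7.91 ± 0.57 in BA and 8.73 ± 0.82 in control cells (SD, n = 5 each), and the growth factor gene Bmp4 averaged 6.88 ± 0.50 in BA and 7.78 ± 1.09 in control cells (SD, n = 5 each). Bmp4 was highest on control replicate 2, at 9.53, and the next control array read 7.82. The forkhead gene Foxc2 differed by 0.65 ± 0.53, and its relative Foxl1 by -0.29 ± 0.17, with a signal above the receptor background on 1 of the 10 arrays. Most markers of stromal progenitors, pericytes and osteoblasts were also lower on average in BA cells, and none passed the adjusted threshold. Markers of stromal progenitors, all 8 lower, averaged 6.54 to 8.14 on BA arrays and 7.55 to 9.66 on control arrays. Pericyte and smooth muscle markers, 7 of 8 lower, averaged 6.84 to 7.78 on BA arrays and 7.79 to 8.74 on control arrays, and osteoblast markers, 6 of 9 lower, 8.58 to 9.55 on BA arrays and 9.06 to 9.68 on control arrays. With an unadjusted p under 0.05 and lower were 4 of the 8 progenitor, 5 of the 8 pericyte and 4 of the 9 osteoblast markers. By that rule 5.27% of all genes were lower. The part of these cell types in the differences of the hedgehog genes was not tested.

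On the PTHrP side, 11 genes were higher and 6 lower of 17 measured, with a median difference of 0.12, where 37.7% of all genes were higher. Of the 17, 1 had an unadjusted p under 0.05, and it was higher, as were 4.13% of all genes by that rule. Pth1r, the receptor, read 9.89, 9.83, 9.65, 10.53 and 9.87 in BA replicates 1 to 5, against 9.70, 9.11, 9.10, 9.80 and 10.94 in control replicates 1 to 5. Control mice spanned the wider range and held the highest and the lowest arrays. The averages were 9.95 ± 0.34 in BA and 9.73 ± 0.75 in control cells (SD, n = 5 each), a difference of 0.22 ± 0.33 (SE; adjusted p = 0.798, limma). Prkar1a, the regulatory subunit that restrains protein kinase A, had the smallest p of the list and averaged 8.28 ± 0.20 in BA and 7.69 ± 0.53 in control cells (SD, n = 5 each), a difference of 0.59 ± 0.23 (SE; adjusted p = 0.507, limma). The zinc finger gene Zfp521, which PTHrP raises in chondrocytes, differed by -0.54 ± 0.34, the CREB coactivator gene Crtc2 by 0.43 ± 0.37 and the histone deacetylase gene Hdac5 by 0.17 ± 0.18. Pth, the parathyroid hormone gene, and Pth2r, a related receptor gene, were at receptor background on every array.

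Among the genes of growth plate FGF and C-type natriuretic peptide signalling, which meet Fgfr3 in restraining or releasing growth, 4 were higher, 11 lower and 1 equal of 16 measured (median difference -0.09), and 4 had an unadjusted p under 0.05, 1 higher and 3 lower, where 4.13% of all genes were higher and 5.27% lower by that rule. Spry4, an inhibitor that FGF signals induce, read 6.27, 6.29, 6.03, 5.88 and 6.00 in BA replicates 1 to 5, against 6.32, 6.50, 6.39, 6.31 and 6.47 in control replicates 1 to 5. All BA arrays lay below all control arrays, by a gap of a few hundredths and as for 1.1% of all genes, and the difference was -0.30 ± 0.10 (SE; adjusted p = 0.482, limma). Its relative Spry2 differed by 0.35 ± 0.15, in the opposite direction. Fgf18, a ligand of Fgfr3 in the growth plate, averaged 6.92 ± 0.35 in BA and 7.47 ± 0.49 in control cells (SD, n = 5 each), a difference of -0.56 ± 0.25 (SE; adjusted p = 0.529, limma). The receptor Fgfr2 averaged 7.02 ± 0.31 in BA and 7.71 ± 0.67 in control cells (SD, n = 5 each), a difference of -0.70 ± 0.30 (SE; adjusted p = 0.509, limma), with control replicate 2 highest at 8.83.

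Ihh is made by chondrocytes on the way to enlargement. Of 10 hypertrophic markers, including the 3 also on the osteoblast list used here, 7 were higher and 3 lower (median difference 0.27). Over all genes 37.7% were higher. Of the 10 markers 1, Mmp13, had an unadjusted p under 0.05, and 4.13% of all genes were higher by that rule. The mean of the 10 markers lay between 9.55 and 9.67 on BA arrays and between 8.89 and 9.58 on control arrays. Mmp13, the collagenase of hypertrophic cartilage and bone, had the smallest p, with 12.02 ± 0.73 in BA and 10.25 ± 0.59 in control cells (SD, n = 5 each; adjusted p = 0.384, limma). Col10a1, the collagen that defines the hypertrophic stage, averaged 10.24 ± 0.47 in BA and 10.59 ± 0.34 in control cells (SD, n = 5 each), the opposite direction from Mmp13. Panx3 differed by 1.03 ± 0.48, Alpl by 0.47 ± 0.27 and Foxa2, a factor of hypertrophic differentiation, by -0.16 ± 0.10. Of the 17 general chondrocyte markers 15 were higher and 2 lower (median difference 0.13), where 37.7% of all genes were higher. The mean of these markers lay between 9.98 and 10.50 on BA arrays and between 9.67 and 10.39 on control arrays. With that mean as a covariate Ihh differed by 0.11, Ptch1 by -0.34 and Fgfr3 by 0.15, and 0 of the 8 genes passed.

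**Figure D3:**
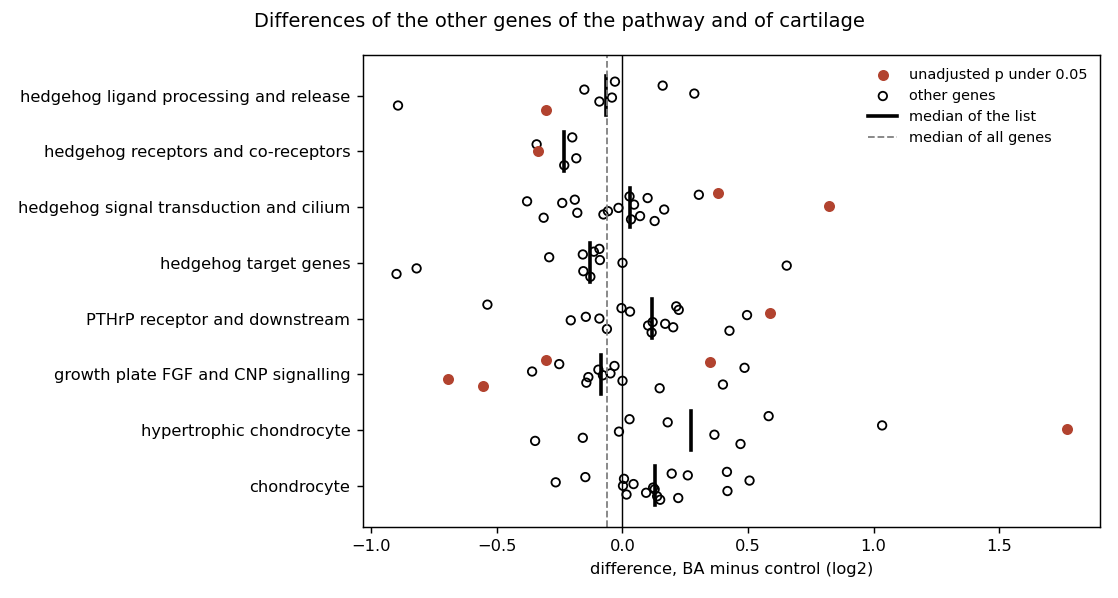
Difference of each gene, BA minus control on the log2 scale (horizontal axis), for 6 lists of other pathway genes and 2 lists of cartilage markers. Filled points have an unadjusted p under 0.05 (limma), black bars are list medians and the dashed line is the median of all genes; the list medians run from -0.23 for the co-receptors to 0.27 for the hypertrophic markers, and Mmp13 at 1.77 lies furthest to the right.

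Whether the 8 genes vary together from mouse to mouse was asked with the 28 pairs they form. No pair had a permutation p under 0.05 over the 10 arrays, by Pearson's r or by Spearman's rho, and after Benjamini-Hochberg adjustment over the 28 pairs the lowest p was 0.743. The highest correlation, between Smo and Gli1, was r = 0.513 (permutation p = 0.125, adjusted p = 0.911) with rho = 0.427 (permutation p = 0.220, adjusted p = 0.743), and r was 0.255 without the 2 arrays farthest from the median of Smo. The target genes Ptch1 and Gli1 had r = 0.424 (permutation p = 0.226, adjusted p = 0.911) and rho = 0.456 (permutation p = 0.186, adjusted p = 0.743), with r = 0.09 without the 2 arrays farthest from the median of Ptch1, BA replicates 1 and 5. Ihh and its target Ptch1 had r = -0.160 (permutation p = 0.632, adjusted p = 0.911) and rho = 0.0488 (permutation p = 0.896, adjusted p = 0.960). Once the group means were removed, Ihh and Smo had r = 0.835 (permutation p = 0.00688), which did not pass over the 28 pairs (adjusted p = 0.193).

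**Figure D4:**
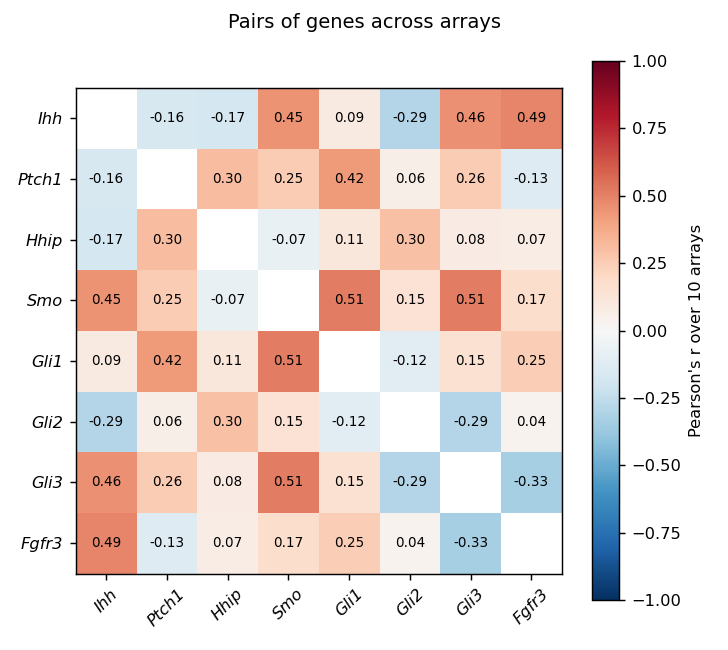
Pearson's r over the 10 arrays (colour and printed value) for each pair of the 8 genes. The values run from -0.33 for Gli3 and Fgfr3 to 0.51 for Smo with Gli1 and with Gli3, and no pair passes the permutation test.

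The genes most like 3 of these across the 10 arrays were taken as the 4 with the highest Pearson's r among 17043 named genes, and since they are the top of so many these values carry no test. For Ihh they were Eif2a (0.939), Tmem74b (0.912), Clk4 (0.901) and Sdhb (0.900). For Gli1 they were Mat1a (0.910), Nat8f4 (0.910), Gabra2 (0.906) and Gemin5 (0.902). For Fgfr3 they were Cpne4 (0.933), Bcat2 (0.898), Fam135a (0.887) and Scoc (0.883). None of these 12 is on the pathway lists used here.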

How the data were processed

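The authors deposited 1 table of log2 values to 2 decimals for 35557 probe sets on 10 arrays. The submitters' processing notes name GCRMA, which corrects background by probe sequence, normalizes and summarises, with no version. That the base is 2 was read from this method and from values of 1.21 to 13.7. Array medians lay between 5.91 and 6.02. There are no detection calls, differences between dim probe sets may not be measured in full, and the number of arrays limits precision.

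Genes were named from the platform annotation: 21789 probe sets had 1 symbol, and the one with the highest mean stood for each of 19938 genes. The groups were compared in limma 3.58.1 under R 4.3.3 by a two-sided lmFit and eBayes fit without covariates, with Benjamini-Hochberg adjustment over all genes; intervals are at 95%. Pairs of genes were tested with 100000 permutations. Scripts were tested on simulated data.

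The 9 genes and all lists were chosen with earlier results of these data known. Named are the 9 genes, up to 4 genes per list with the smallest p, genes whose role is explained, and the 4 genes most like Ihh, Gli1 and Fgfr3. For Pthlh no likeness was computed, so 28 pairs were tested rather than the 36 first planned. Alternatives were the replicate block, quantile normalization, centring, a filter on dim genes, array weights, eBayes with trend and robust options, all probe sets or their mean, a threshold of 0.10, an equal-variance test, an exact permutation test, covariates (Xist, pan-haematopoietic mean, chondrocyte mean) and leaving out each array.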

Additional observations from a re-analysis of the deposited data

How the results depend on the processing

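No setting brought any of the 8 genes past the threshold: the count was 0 under every alternative and without each array. The directions of Ihh, Hhip, Fgfr3, Smo, Gli1 and Gli2 were the same under every setting run. The difference of Gli3, -0.02, became 0.012 with each array centred on its median, 0.0777 with array weights, and lay between -0.22 and 0.13 without 1 array. That of Ptch1, -0.18, became 0.015 without BA replicate 1, the highest of its values without 1 array, which reached down to -0.34. Over all genes 1 was past the threshold and higher in BA, where 824 had an unadjusted p under 0.05. That count was 0 with the replicate block, 0 with the pan-haematopoietic covariate, 0 with the equal-variance test, 0 among genes with a mean above the median (Snord38a, a dim gene, was then not tested) and 2 with the Xist covariate. Without 1 array it lay between 0 and 12, with 12 without BA replicate 4. The count lower in BA was 0, where 1051 had an unadjusted p under 0.05, and lay between 0 and 1 without 1 array, with 1 without BA replicate 4. Apart from the constructions named, the cause was not tested. Centring turned the split of genes with an unadjusted p under 0.05 to 969 higher and 821 lower. The labels do not say that the replicate numbers pair the samples. The correlation of deviations ran from -0.10 to 0.11 between same-numbered arrays. The highest with another number ran from 0.02 to 0.10. For replicate 4 alone the same-numbered value was the higher, 0.11 against 0.02. Such values cannot settle whether mice were paired. The replicate block leaves differences as they are in this balanced design and changes their error: for Hhip, with its difference of 0.53, the SE was 0.257 with the block and 0.572 without, and the unadjusted p 0.0808 and 0.375 (limma), and none of the 8 passed. In the exact permutation test of each gene alone the lowest p was 0.127, for Ihh. Signal at background limits Hhip on replicate 1 of both groups. Gli2, with the lowest mean of the 8 (6.60), lay close to the cut on control replicate 5, at 6.38 against 6.29 on that array.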
